A study of Mus musculus with 88 samples.

Results

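GFAP+ nuclei of the saline-injected mouse hippocampus were set against the 3 other sorted populations of the same injection group, to ask which nuclear RNA defines the sorted astrocytes and how much RNA of other cell types came with them. The members are the 4 GFAP+ saline libraries, of 88 samples in the series and 74 RNA libraries, and they were chosen by the sorted population and the injection named in the labels. The reference is made of 12 libraries, 4 each of NeuN+, PU.1+ and 3X- nuclei after saline.

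Mice were male C57BL/6J animals of 4 months, taken 30 minutes after an intraperitoneal injection of saline. Nuclei were fixed in paraformaldehyde, stained and sorted on DNA content, then on NeuN, a nuclear protein of neurons. NeuN- nuclei were divided by GFAP, and nuclei without GFAP by PU.1, a transcription factor of microglia, so that 3X- nuclei carried none of the 3 antigens. White matter and choroid plexus had been removed at dissection. The labels do not say whether populations with the same number came from 1 animal, although the gates were applied one after another to the same nuclei, so p-values measure the spread between these libraries. The 4 GFAP+ libraries held 7557093 to 10564146 counts and the 12 others 7184428 to 10013376. For comparison, the same 4 populations were collected after corticosterone (2 mg/kg), and NeuN- and NeuN+ nuclei came from naive hippocampus and medial prefrontal cortex (mPFC).

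Astrocytes are glia that clear glutamate and potassium from the space around synapses, form water-channel-rich endfeet on blood vessels, and are joined to each other by connexin channels. GFAP is an intermediate filament protein of their cytoskeleton, abundant in hippocampal astrocytes and also made by the radial stem cells of the dentate gyrus. Because nuclei and not cells were sorted, the values below describe nuclear RNA, largely unspliced, counted over exons and introns.

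The stretches upstream of 4 genes that the results turn on are shown first: the gate antigen, and 3 of the genes furthest above every other population. Each is the 250 bases before the RefSeq start on GRCm38.p6, read 5′ to 3′ on the gene's strand, with CpG dinucleotides in capitals. The Gfap stretch lies at chr11:102897201-102897450 on the minus strand, 3712 bases from the 5′ end of the longer GENCODE gene model. The Grin2c stretch lies at chr11:115267244-115267493 (minus), the Prdm16 stretch at chr4:154636874-154637123 (minus) and that of the long noncoding RNA C030018K13Rik at chr5:64476758-64477007 (plus).
Gfap: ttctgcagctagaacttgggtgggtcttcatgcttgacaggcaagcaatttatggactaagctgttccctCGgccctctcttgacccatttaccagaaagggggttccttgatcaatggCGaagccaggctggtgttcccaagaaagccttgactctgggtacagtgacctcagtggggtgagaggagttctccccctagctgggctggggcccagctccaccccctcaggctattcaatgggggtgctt
Grin2c: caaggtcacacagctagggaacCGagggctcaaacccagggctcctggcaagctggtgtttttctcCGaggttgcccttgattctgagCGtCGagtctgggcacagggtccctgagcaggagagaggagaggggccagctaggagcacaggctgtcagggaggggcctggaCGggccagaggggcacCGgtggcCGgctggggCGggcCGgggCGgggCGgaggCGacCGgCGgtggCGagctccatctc
Prdm16: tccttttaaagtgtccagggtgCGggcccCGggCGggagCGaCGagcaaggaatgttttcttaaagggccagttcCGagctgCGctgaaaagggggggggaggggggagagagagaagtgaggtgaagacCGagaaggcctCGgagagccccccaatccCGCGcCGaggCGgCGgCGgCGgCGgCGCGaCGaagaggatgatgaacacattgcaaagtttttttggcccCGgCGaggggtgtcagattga
C030018K13Rik: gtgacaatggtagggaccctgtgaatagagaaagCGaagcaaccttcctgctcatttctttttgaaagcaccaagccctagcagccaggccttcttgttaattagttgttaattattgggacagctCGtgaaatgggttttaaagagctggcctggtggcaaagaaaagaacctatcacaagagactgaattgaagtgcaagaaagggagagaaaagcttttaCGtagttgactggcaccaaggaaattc
The 4 stretches differed in base content. Prdm16 had 22 CpG dinucleotides and Grin2c 15, against 3 for C030018K13Rik and 2 for Gfap.

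Gfap RNA was found in every GFAP+ library and was far higher there than anywhere else. Gfap (chr11:102887336-102900912, minus strand) had 175, 150, 190 and 191 CPM (counts scaled to a common library total) in GFAP+ nuclei, against 1.21, 1.11, 1.60 and 0.852 CPM in NeuN+, 14.9, 10.9, 18.9 and 22.3 CPM in PU.1+ and 5.70, 5.42, 6.21 and 7.49 CPM in 3X- nuclei. No GFAP+ library overlapped any other. The log2 fold change of GFAP+ over the mean of the other 3, taken over their log2 levels, was 5.03 ± 0.10 (SE, adjusted p = 5.09e-24, n = 4 in each population). Gfap was the antigen of the gate, so its RNA checks the sort. Gm26668 lies on the opposite strand of Gfap, and without a stated strand setting its reads cannot be told apart.

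Aqp4, the water channel of astrocyte endfeet, was not used in the sort. It had 240, 304, 251 and 278 CPM in GFAP+ nuclei, against 0.604 to 0.746 CPM in NeuN+, 11.4 to 20.3 CPM in PU.1+ and 6.10 to 7.71 CPM in 3X- nuclei, a log2 fold change of 5.93 ± 0.09. Both markers were highest in the population that the label names, and in both the PU.1+ population came second. Bulk nuclear RNA cannot tell fewer nuclei of a type from less RNA per nucleus.

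**Figure D1:**
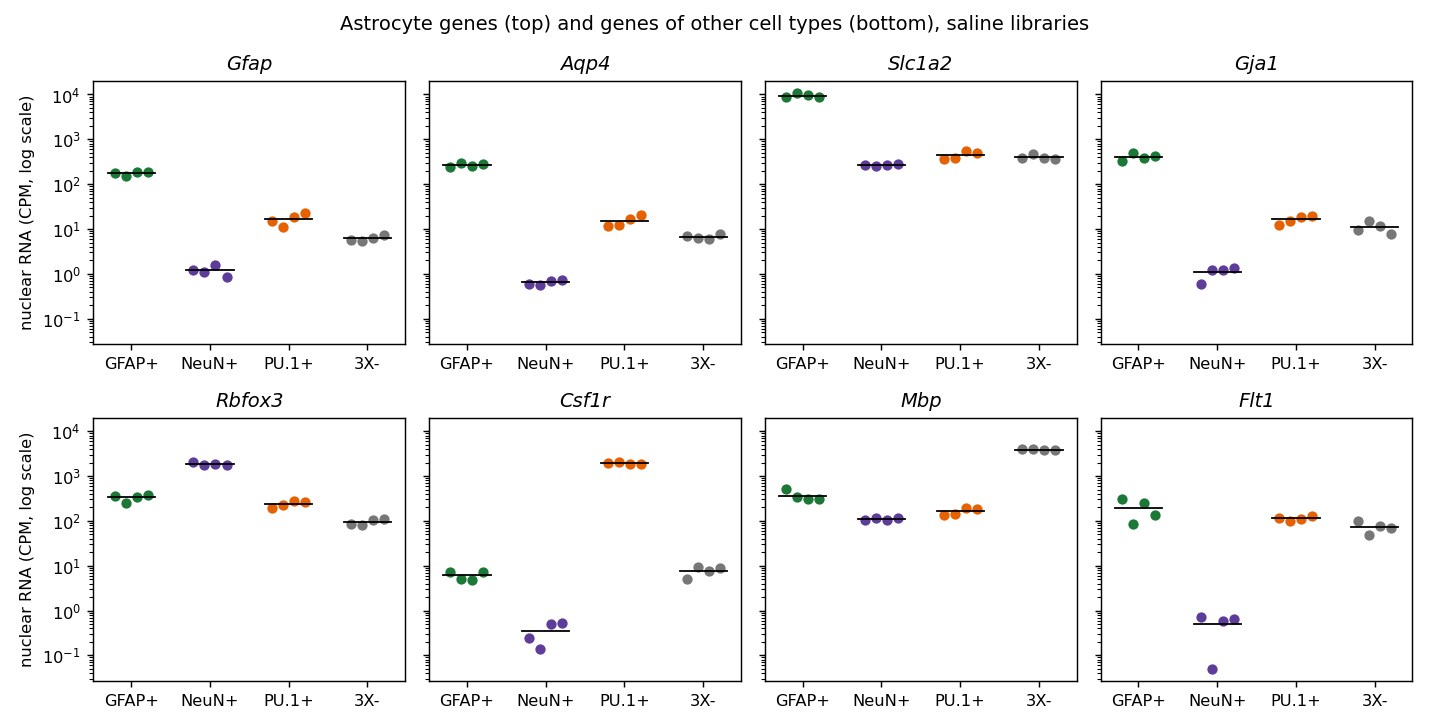
Nuclear RNA of 8 genes (CPM, log scale) in the 4 saline libraries of each sorted population; points are libraries, lines are means, and a library with 0 counts is drawn at 0.05. The astrocyte genes in the top row are highest in GFAP+ nuclei without overlap, Rbfox3, Csf1r and Mbp are highest in another population, and Flt1 is spread over the GFAP+ libraries.

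All 25 astrocyte markers were higher in GFAP+ nuclei than in the mean of the others, where 27.3% of all 17284 tested genes were higher and 29.6% lower (4724 and 5110 genes, edgeR quasi-likelihood test, adjusted p under 0.05). Without TMM scaling, which corrects library composition, those counts were 5464 and 3897. The median log2 fold change of the markers was 4.93, beside -0.07 for all tested genes. They included the glutamate transporters Slc1a2 and Slc1a3, the connexins Gja1 and Gjb6, the folate enzyme Aldh1l1 and the transcription factor Sox9. Slc1a2 alone had 8641, 10798, 9668 and 8799 CPM in GFAP+ nuclei, against 254 to 276 CPM in NeuN+, 372 to 539 CPM in PU.1+ and 367 to 469 CPM in 3X- nuclei.

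A total of 23 of these 25 markers were at least 2-fold above each other population, and the exceptions were S100b and Hepacam. S100b, a calcium-binding protein, had 12.7 to 15.9 CPM in GFAP+ nuclei and 9.59 to 12 CPM in 3X- nuclei. Hepacam, an adhesion protein that anchors the channel protein Mlc1, had 246, 318, 278 and 264 CPM in GFAP+ nuclei, against 226, 230, 217 and 228 CPM in 3X- nuclei and at most 13.8 CPM in NeuN+ or PU.1+ nuclei. Neither gene separated GFAP+ from 3X- nuclei by 2-fold. The log2 difference against 3X- was 0.32 for S100b and 0.23 for Hepacam. The potassium channel Kcnj10 (145 ± 8.15 CPM in GFAP+ and 164 ± 9.27 CPM in 3X-, SD, n = 4 each) and the engulfment receptor Megf10 (273 ± 32.4 and 278 ± 35.5 CPM) likewise had levels in 3X- nuclei near those in GFAP+.

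Across the transcriptome, 992 genes (5.74% of those tested) were at least 2-fold higher in GFAP+ than in each of the 3 other populations, and 54 (0.312%) were at least 2-fold lower, or 33 without TMM scaling. Of the 992 genes, 500 were at least 4-fold and 127 at least 16-fold above each. The 4 GFAP+ libraries stood above all 12 others in CPM for 939 of the 992, where 10.7% of all tested genes did so. The nearest population was 3X- for 528 of the genes, NeuN+ for 247 and PU.1+ for 217. These genes took 17.5% ± 1.25 of all counts in GFAP+ nuclei (SD, n = 4), against 2.23% ± 0.01 in NeuN+, 1.71% ± 0.14 in PU.1+ and 3.44% ± 0.07 in 3X- nuclei. That share follows from how the genes were picked and is given as a description. Just inside the 2-fold rule were Tmem218, Cd93 and D630033A02Rik (smallest log2 difference 1.00 for each), and just outside Zfp366, Gm13031 and A330074K22Rik (0.999, 0.9989 and 0.9988). Among lower genes Pdia5, Ldlrad4 and Fam3a (-1.002, -1.008 and -1.013) were inside, and Gpr155, A830052D11Rik and Slc16a6 (-0.99, -0.98 and -0.98) outside.

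Protein-coding genes were 74.9% of the 992, against 75.4% of tested genes. Among the rest, intergenic long noncoding RNAs were 8.97% (89 genes), against 4.28%, and antisense transcripts 7.06% (70 genes), against 3.92%, while processed transcripts were 1.51% against 1.49%. The median gene body was 19184 bp, against 16210 bp. These shares are descriptions with no test.

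Of the 20 genes furthest above every other population, 11 were protein-coding. The one with the largest smallest difference was C030018K13Rik, an intergenic noncoding RNA, with 76.5, 88.6, 77.1 and 75.8 CPM in GFAP+ nuclei, against 0 to 0.213 CPM in NeuN+, 1.22 to 2.38 CPM in PU.1+ and 0.665 to 2.17 CPM in 3X- nuclei. Its smallest log2 difference was 5.73, against 3X-. Grin2c, a subunit of NMDA-type glutamate receptors, had 415, 474, 450 and 416 CPM in GFAP+ nuclei, against 0.362 to 1.39 CPM in NeuN+, 6.84 to 11 CPM in PU.1+ and 5.73 to 13.7 CPM in 3X- nuclei. This receptor subunit was lowest in the neuronal population, with a log2 difference of 8.61 against NeuN+. Against NeuN+ alone 31.7% of tested genes were higher and 32.6% lower (5484 and 5641 genes), or 8041 and 3575 genes without TMM scaling.

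Of the 11 coding genes, 3 encode transcription factors. Prdm16, a zinc finger protein that controls cell fate in several tissues, had 902, 1008, 944 and 873 CPM in GFAP+ nuclei, against 1.93 to 3.09 CPM in NeuN+, 21.9 to 26.6 CPM in PU.1+ and 19.3 to 30.1 CPM in 3X- nuclei. Gm13111, an antisense transcript that starts close to the start of Prdm16 on the opposite strand, had 37.7, 49.5, 46.1 and 49.0 CPM in GFAP+ nuclei and at most 1.71 CPM elsewhere. Gli3, a mediator of Shh signalling, had 613, 690, 630 and 614 CPM in GFAP+ nuclei and at most 20.6 CPM in any other library. The homeodomain factor Otx1 was lower in level, with 13 to 16.4 CPM in GFAP+ nuclei and at most 0.542 CPM elsewhere.

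The other coding genes of the 20 were enzymes, receptors and surface proteins. Aass, which starts lysine breakdown, had 31.0 to 49.9 CPM in GFAP+ nuclei and at most 1.62 CPM elsewhere, and Entpd2, an enzyme that splits extracellular ATP, 13.8 to 19.4 CPM and at most 0.665 CPM. Bmpr1b, a BMP receptor, differed almost equally from all 3 populations, with log2 differences of 5.13 to 5.42. Ttll8, Scara3, Plcd4 and Gm973 completed the coding set, with smallest log2 differences of 5.37, 5.27, 5.12 and 5.31. Ttll8 is a tubulin-modifying enzyme and Plcd4 a phospholipase C.

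The noncoding RNA Gm36908 had 10.4, 13.6, 13.6 and 12.1 CPM in GFAP+ nuclei and no count in the 4 NeuN+ libraries, so that it was at least 144.5-fold higher, set against a floor of 3 counts over the group. Gm13326, Gm35552, Gm6145, Gm13322, Gm12239 and Hectd2os were the remaining noncoding entries, with smallest log2 differences of 5.13 to 5.55. Gm12239 overlaps Nmur2 and Hectd2os overlaps Hectd2 on the opposite strand, so that their reads are uncertain where strand was not used.

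**Figure D2:**
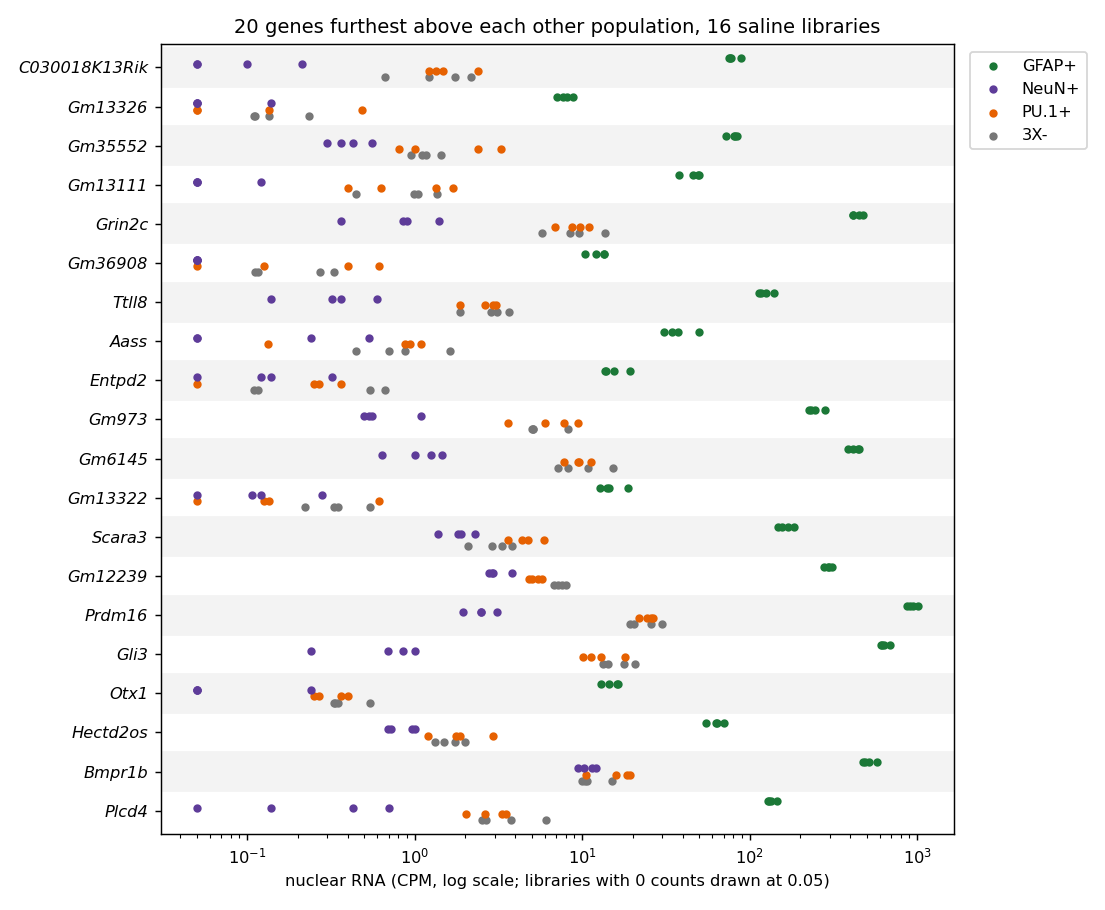
Nuclear RNA (CPM, log scale) of the 20 genes furthest above each other population; every point is 1 saline library, and libraries with 0 counts are drawn at 0.05. For every gene the 4 GFAP+ points lie apart to the right, by a smallest log2 difference of 5.12 to 5.73.

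Genes for transmitter uptake were high as a group. Of 16 tested genes for uptake and metabolism of glutamate, GABA and glycine, 14 were higher and 2 lower than the mean of the others (median log2 fold change 3.65), and 12 were at least 2-fold above each population. Slc7a10, a serine and glycine transporter, had 227 ± 20.8 CPM in GFAP+ nuclei (SD, n = 4), against 0.372, 5.06 and 22.6 CPM on average in NeuN+, PU.1+ and 3X- nuclei. The GABA transporter Slc6a11 had 551 ± 33.9 CPM in GFAP+ nuclei and at most 35.1 CPM on average elsewhere. The lower members included the glutamine transporter Slc38a2 (-1.27 ± 0.09, SE), which was highest in 3X- nuclei. Glutamine synthetase (Glul) was higher, at 3.10.

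Ion and water transport genes were higher in 17 of 18 cases (median 3.61), 9 of them at least 2-fold above each population. Besides Aqp4 these included Mlc1, with 178 ± 19.5 CPM in GFAP+ nuclei, against at most 7.82 CPM on average elsewhere. The exception was the chloride transporter Slc12a2, which was lower by the mean contrast (-1.06 ± 0.07) and highest in 3X- nuclei at 684 ± 10.6 CPM.

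The connexin family split by cell type. The astrocyte connexins were at least 2-fold above each population: Gja1 with 337, 498, 384 and 420 CPM in GFAP+ nuclei and at most 19.2 CPM elsewhere, Gjb6 with 113, 173, 152 and 133 CPM and at most 7.45 CPM, and Gjb2 with 3.98 ± 0.94 CPM in GFAP+ nuclei. Gjb2 had no count in NeuN+ nuclei. The oligodendrocyte connexins Gjc3 and Gjb1 had mean levels of 25 and 0.973 CPM in GFAP+ nuclei, against 331 and 15.2 CPM in 3X- nuclei, where both were highest. Of 7 tested connexins 6 were higher, 1 did not pass, and 3 were at least 2-fold above each.

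All 31 transcription factors of the astrocyte lineage were higher (median 3.85), and 23 were at least 2-fold above each population. Besides Gli3 and Otx1, Gli1 and Gli2 (14.2 ± 1.62 and 705 ± 47.9 CPM), Pax6 (56.0 ± 1.38 CPM) and Rfx4 (303 ± 7.0 CPM) were at least 2-fold above each. Sox9, a determinant of glial fate, had 55.8 ± 3.21 CPM in GFAP+ nuclei and at most 3.45 CPM on average elsewhere. The broadly expressed nuclear factor I genes had smaller differences, with log2 fold changes of 1.37 for Nfia, 1.29 for Nfib and 0.18 for Nfix. Zbtb20, a hippocampal regulator, had 3693 ± 201 CPM in GFAP+ nuclei, against 2365 ± 96.7 CPM in NeuN+ nuclei.

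Receptors and feedback genes of the Notch, Fgf, Bmp and Shh pathways were higher in 18 of 20 cases (median 1.95). Notch1, Notch3, Fgfr1, Fgfr3, Bmpr1b, Ptch1, Lrig1, Egfr and Spry2 were at least 2-fold above each. Notch3 is also on the mural and fibroblast list below, with 57.2, 35.7, 47.1 and 35.9 CPM in the 4 GFAP+ libraries. Fgfr3 had 411 ± 41.7 CPM in GFAP+ nuclei, against 1.25, 11.3 and 17.3 CPM in NeuN+, PU.1+ and 3X- nuclei, whereas its relative Fgfr2 was highest in 3X- nuclei (379 ± 18.8 CPM in GFAP+ and 889 CPM in 3X-). The lower members were Spry1 (-0.69 ± 0.17), an inhibitor of receptor kinase signalling, and the Notch ligand Dll1 (-0.77 ± 0.13).

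Among 18 tested G protein-coupled receptors and calcium genes, 14 were higher and 1 lower (median 2.11), and 6 were at least 2-fold above each. These 6 were the adrenergic receptors Adra1a and Adra2a, the endothelin receptor Ednrb, the neurotensin receptor Ntsr2, Gpr37l1 and the sphingosine phosphate receptor S1pr1. Ntsr2 had 346 ± 31.0 CPM in GFAP+ nuclei and at most 13.1 CPM on average elsewhere. The glutamate receptor Grm3 was equally high in 3X- nuclei (1169 ± 50.2 CPM in GFAP+ and 1188 ± 50.1 CPM in 3X-), and Grm5 was lower than the mean of the others (-0.42 ± 0.09). Adora1, Gabbr2 and Itpr1 had log2 values of 0.15, -0.19 and -0.14 and did not pass. With the replicate number as a block in edgeR, Gabbr2 and Itpr1 passed (adjusted p = 0.0337 and 0.0219).

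Metabolic genes were mostly higher. In lipid and cholesterol handling 23 of 24 genes were higher (median 2.11) and 11 at least 2-fold above each, led by the acyl-CoA synthetase Acsbg1 (289 ± 23.3 CPM in GFAP+ and at most 9.69 CPM on average elsewhere), the apolipoprotein Clu and the desaturase Fads2. The cholesterol exporter Abcg1 was the exception, at 32 ± 6.17 CPM in GFAP+ nuclei, against 59.8, 162 and 240 CPM in NeuN+, PU.1+ and 3X- nuclei, and it was at least 2-fold below each population. In energy metabolism 21 of 22 genes were higher (median 2.11). The glycogen-targeting subunits Ppp1r3c and Ppp1r3g had 34.5 ± 5.91 and 12.1 ± 2.38 CPM in GFAP+ nuclei and log2 fold changes of 5.07 and 5.87, and glycogen phosphorylase Pygb had 315 ± 18.9 CPM and 2.72. The lactate exporter Slc16a3 was lower (-2.41 ± 0.33) and highest in PU.1+ nuclei.

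Amino acid and one-carbon genes were higher in 22 of 23 cases (median 2.89), with 12 at least 2-fold above each. Gldc, the glycine-cleaving decarboxylase, had 339 ± 17.1 CPM in GFAP+ nuclei, against 1.39, 8.10 and 13.5 CPM in NeuN+, PU.1+ and 3X- nuclei, and Etnppl, a phospholyase, 99.8 ± 31.5 CPM against at most 3.64 CPM. The serine-synthesis enzymes Phgdh and Psat1 did not separate in this way. Phgdh had 96.0 ± 10.6 CPM in GFAP+ and 79.5 CPM in 3X- nuclei, and Psat1 62.6 ± 5.77 and 126 CPM. Gss was lower, at -0.39 ± 0.08.

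Synapse-organising secreted and adhesion genes were higher in 21 of 24 cases (median 2.31), and 11 were at least 2-fold above each. In the thrombospondin family, whose members promote synapse formation, Thbs4 had 79.9, 123, 102 and 88.5 CPM in GFAP+ nuclei and at most 6.34 CPM elsewhere, while Thbs1 (-0.32 ± 0.43) and Thbs3 (-0.07 ± 0.14) did not pass. The matrix genes Tnc, Bcan and Ncan and the glypicans Gpc5 and Gpc6 were at least 2-fold above each, but Gpc4 had 50.3 ± 6.50 CPM in GFAP+ and 88.0 CPM in NeuN+ nuclei. Sparcl1 had 1440 ± 118 CPM in GFAP+ nuclei and at most 149 CPM on average elsewhere. Sparc was highest in PU.1+ nuclei (73.6 ± 7.82 CPM in GFAP+ and 533 CPM in PU.1+). Of 14 angiogenic, vascular and endfoot genes 13 were higher (median 3.72) and 10 at least 2-fold above each, among them Vegfa (192 ± 30.6 CPM in GFAP+ and at most 71.4 CPM on average elsewhere) and Agt (35.2 ± 6.40 CPM and at most 1.45 CPM).

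Reactive astrocyte genes, which rise after injury or inflammation, were only in part high enough to test. Of 27 genes, 12 were below that level, among them Lcn2 at 0.0331 ± 0.0662 CPM and Timp1 at 0.0855 ± 0.106 CPM in GFAP+ nuclei. Of the 15 tested, 11 were higher, 1 was lower and 3 did not pass (median 1.59). Osmr, Aspg, Vim and S100a10 were at least 2-fold above each. Osmr had 35.9, 27.8, 32.4 and 31.7 CPM in GFAP+ nuclei and at most 7.21 CPM elsewhere, and Vim, an intermediate filament partner of GFAP, had 25.4, 15.8, 25.8 and 18.7 CPM and at most 11.5 CPM. In both genes replicates 1 and 3 lay above replicates 2 and 4, as in most endothelial markers below, and the part of vascular nuclei was not tested.

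**Figure D3:**
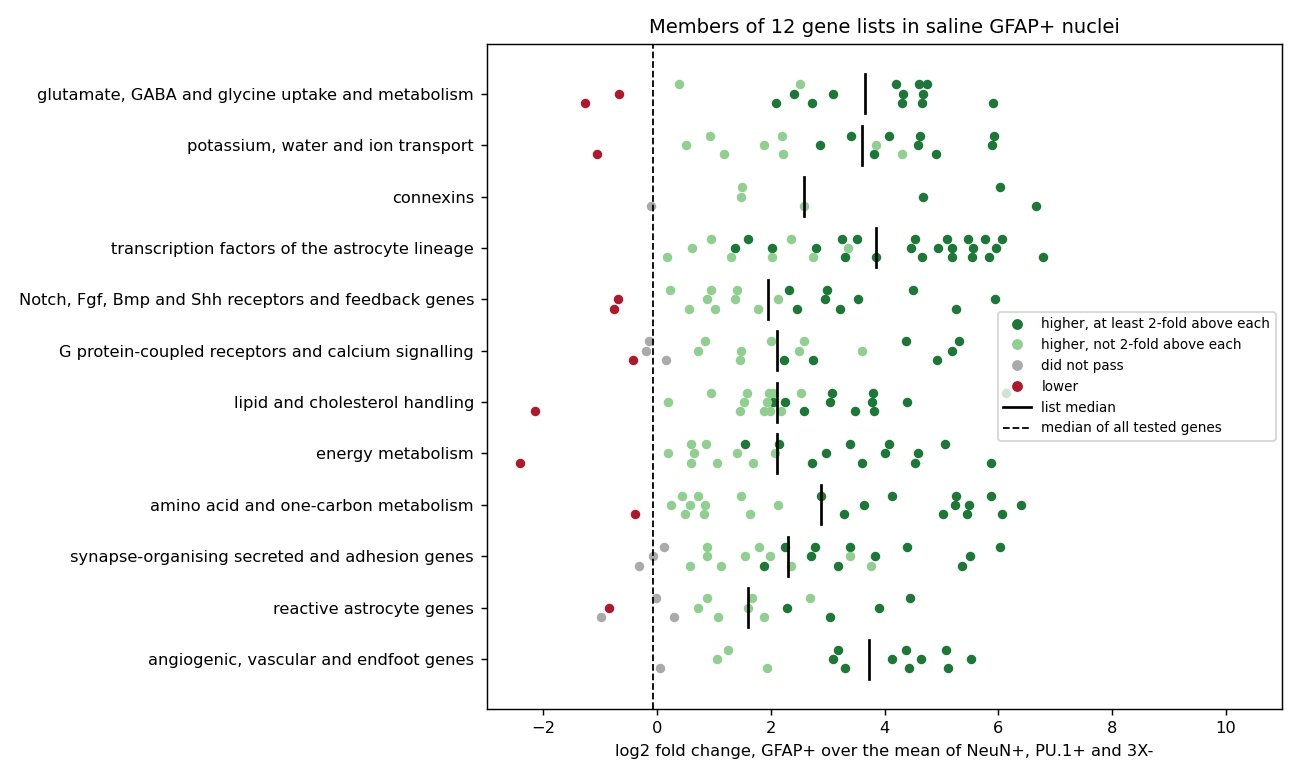
Log2 fold change of GFAP+ over the mean of NeuN+, PU.1+ and 3X- nuclei for each tested member of 12 gene lists; colours give the result of the test, solid lines the list medians and the dashed line the median of all 17284 tested genes (-0.07). Medians run from 1.59 for reactive astrocyte genes to 3.85 for transcription factors, and lower members are few.

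The 54 genes at least 2-fold below each population were fewer and less far away, and 42 of them had no overlap with any other library, where 1.97% of all tested genes had none. Csmd3, a large synaptic adhesion protein, had 394, 280, 334 and 340 CPM in GFAP+ nuclei, against 942 to 1022 CPM in NeuN+, 4080 to 4604 CPM in PU.1+ and 1355 to 1544 CPM in 3X- nuclei. Slc16a7, a transporter for lactate and pyruvate, had 52.4, 41.3, 48.5 and 52.9 CPM in GFAP+ nuclei and 162 to 203 CPM in all the others. Stxbp2, a syntaxin-binding protein of exocytosis, had 4.57 to 7.0 CPM in GFAP+ nuclei and 17 to 33.1 CPM elsewhere. Against each population these 3 genes fell by at least 1.81 on the log2 scale.

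The rest of the 10 lowest by this rule were Slc8a1, Ptpro, Ifitm10, Pvt1, Nfatc2, Galnt3 and Ttc9, with the difference nearest to 0 between -1.85 and -1.58. The sodium-calcium exchanger Slc8a1 had 287 to 402 CPM in GFAP+ nuclei and at least 1104 CPM elsewhere. Among genes without overlap and with a mean of at least 50 counts in the lowest other population, the 10 with the largest falls against the mean of the 3 were all highest in PU.1+ nuclei. Ifitm10, Arhgap22, Aim2, Nfatc2, Pde3b, Slc16a6, Pou2f2, Csmd3, Mgat4a and Maf fell by 2.42 to 3.34 on the log2 scale. Arhgap22, a regulator of Rac, had 6.67 to 10.1 CPM in GFAP+ nuclei, 965 CPM on average in PU.1+ and 20.4 and 23.2 CPM in NeuN+ and 3X- nuclei.

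Purity was read from markers of the other populations, each as a percent of its level in the population sorted for that type. Microglial RNA was low, with a summed level of 56.5 to 67.6 CPM over 14 markers in GFAP+ libraries, against 10674 to 11493 CPM in PU.1+ libraries. The median marker was at 0.262% to 0.440% of the PU.1+ level over the 4 GFAP+ libraries, beside 0.294% to 0.501% in 3X- and 0.0162% to 0.0426% in NeuN+ nuclei. Csf1r, the receptor that microglia need to survive, had 7.15, 4.94, 4.81 and 7.38 CPM in GFAP+ nuclei, against 1874 to 2043 CPM in PU.1+ nuclei.

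Oligodendrocyte-lineage RNA was at an intermediate level and varied between libraries. The median of 14 oligodendrocyte markers was 5.85% to 11.1% of the 3X- level in GFAP+ nuclei, and that of 12 precursor markers 9.09% to 17.2%, both highest in replicate 1. Mbp, a myelin protein, had 506, 335, 312 and 307 CPM in GFAP+ nuclei, against 3749 to 4032 CPM in 3X- nuclei, and Pdgfra, a growth factor receptor of precursors, 56.9, 30.0, 29.2 and 31.2 CPM, against 321 to 368 CPM. In PU.1+ nuclei the same medians were 1.57% to 2.48% and 1.85% to 2.98%. Set against the mean of the other 3 populations, 11 of 14 oligodendrocyte markers and all 12 precursor markers were called higher in GFAP+ nuclei, although every one of them was highest in 3X- nuclei on average, because NeuN+ and PU.1+ levels lower the mean. Their part in the genes that were called higher was not tested.

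Of the marker lists of other sorted types, the neuronal ones had the highest percent. The median of 12 excitatory markers in GFAP+ nuclei was 28.2% to 41.4% of the NeuN+ level (mean 34.8%), against 19.5% to 35.9% in PU.1+ and 7.38% to 12.8% in 3X- nuclei. With TMM-scaled CPM the GFAP+ mean was 27.0%. Rbfox3, the gene of the NeuN antigen used to remove neurons, had 354, 257, 346 and 386 CPM in GFAP+ nuclei, against 1748 to 2018 CPM in NeuN+, 191 to 281 CPM in PU.1+ and 80.4 to 111 CPM in 3X- nuclei. All GFAP+ libraries lay below all NeuN+ libraries and above all 3X- libraries, and overlapped PU.1+ libraries. Among the 12 markers Rbfox3 had the lowest mean percent of the NeuN+ level in GFAP+ nuclei (18.1%) and Neurod6 the highest (52.65%). Prox1 was highest in 3X- nuclei, at 158% of its NeuN+ level. Against the mean of the others 3 excitatory markers were higher, 4 lower and 5 did not pass (median 0.02). For 10 inhibitory markers the percent was 50.5% to 70.1% (mean 56.7%, or 44.2% with TMM-scaled CPM), a list that includes Erbb4, which was highest in 3X- nuclei.

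Purity was also read from genes picked without the GFAP+ libraries, by a mean of at least 5 CPM in 1 population and 8-fold that of the other 2, a rule added after the markers were seen. The 751 genes of PU.1+ nuclei had a median of 2.68% of their PU.1+ level in GFAP+ nuclei (quartiles 0.637% and 8.43%). The 422 genes of 3X- nuclei had 12.6% (8.79% and 36.1%), and the 8 genes of NeuN+ nuclei 17.1% (15.9% and 17.5%). The 8-fold rule drops neuronal genes that PU.1+ or 3X- nuclei also hold, so the 8 genes do not stand for neuronal genes as a whole. For 6 genes of PU.1+ nuclei and 42 of 3X- nuclei the GFAP+ level exceeded that of the population that picked them.

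**Figure D4:**
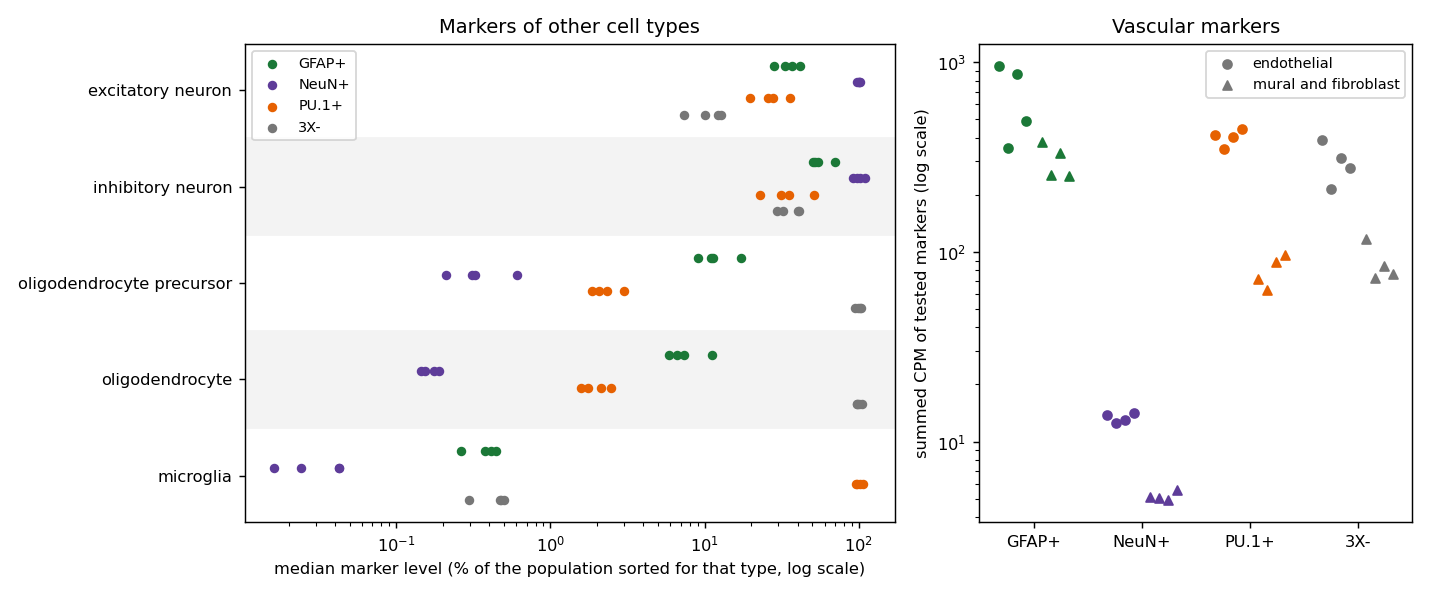
Left, median level of the tested markers of 5 cell types in each saline library, as a percent (log scale) of the mean in the population sorted for that type; right, summed CPM (log scale) of 12 endothelial and 6 mural and fibroblast markers by library, in replicate order from left to right within each population. GFAP+ nuclei reach 28.2% to 41.4% for excitatory neurons and at most 0.440% for microglia, and their endothelial sums run from 353 to 959 CPM.

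No gate removed vascular nuclei, and vascular RNA was present in GFAP+ nuclei. The summed level of 12 endothelial markers was 353 to 959 CPM in GFAP+ libraries, against 12.5 to 14.1 CPM in NeuN+, 350 to 447 CPM in PU.1+ and 214 to 389 CPM in 3X- libraries. All 12 were higher than the mean of the others (median 3.08), and none was at least 2-fold above each. Flt1, a VEGF receptor of endothelium, had 312, 87.3, 248 and 138 CPM in GFAP+ nuclei, against 97.9 to 130 CPM in PU.1+ and 48.6 to 97.6 CPM in 3X- nuclei. GFAP+ replicates 1 and 3 lay above replicates 2 and 4 for 11 of the 12, Mfsd2a being the exception. The share of all tested genes with this order is not given here.

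Mural and fibroblast markers, for pericytes and their neighbours, summed to 252 to 378 CPM over 6 tested genes in GFAP+ libraries, against 63.0 to 96.9 CPM in PU.1+, 72.6 to 118 CPM in 3X- and 4.89 to 5.54 CPM in NeuN+ libraries. Only 6 of the 12 list members reached the level for a test. All 6 were higher, and Pdgfrb, Notch3 and Col1a1 were at least 2-fold above each. Pdgfrb, the PDGF receptor of pericytes, had 160, 147, 144 and 134 CPM in GFAP+ nuclei, without the split between replicates 1 and 3 and replicates 2 and 4 that Rgs5 had (95.9, 34.8, 84.5 and 46.9 CPM).

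The split between replicates was also seen in some genes of the astrocyte set. At a mean of at least 50 counts, 104 tested genes had replicates 1 and 3 both at least 1.5 times replicates 2 and 4. Among the 992 were 13 of these, including Ahnak, Cavin1, Nostrin, Tie1, Mmrn2 and Cd93. The number of genes with that many counts is not given here, so neither count can be read as a share. Tie1, an endothelial receptor, exceeded the nearest population by only 1.02 on the log2 scale. Without replicates 1 and 3, a choice made after seeing the data, 992 genes were again at least 2-fold above each population and 922 of them were shared with the full set. The part of vascular nuclei in single calls was not tested. Ependymal and choroid genes summed to 31.9, 11.7, 24.3 and 15.0 CPM over all 12 members in GFAP+ libraries, again higher in replicates 1 and 3, against 21.6 to 25.2 CPM in NeuN+, 7.74 to 19.6 CPM in PU.1+ and 11.5 to 12.1 CPM in 3X- libraries. Only 2 members reached the level for a test, and neither passed, although Kl did in edgeR with the replicate block (adjusted p = 0.0438). The choroid gene Ttr averaged 0.162 CPM in GFAP+ nuclei.

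Of 13 stem cell and neuroblast genes of the dentate gyrus 8 were tested. Against the mean of the others 6 were higher, 1 was lower and 1 did not pass (median log2 fold change 1.51). Their summed level was 117.5 to 141.1 CPM in GFAP+ libraries and highest in 3X- libraries, at 233.5 to 271.2 CPM. Much of the 3X- sum came from 1 member, Lpar1. Its lowest GFAP+ library, at 16.7 CPM, reached 0.0858 of its highest other library, which was of 3X- nuclei. The sum therefore does not stand for the list as a whole. Hopx, which marks radial stem cells and also mature astrocytes, had 37.9, 52.5, 35.9 and 44.7 CPM in GFAP+ nuclei and at most 2.88 CPM elsewhere, and it was the single member of 8 tested that was at least 2-fold above each. Sox2 had 21.2 ± 1.60 CPM in GFAP+ and 34.5 CPM in 3X- nuclei. Dcx, a microtubule protein of neuroblasts, was lower (12.4 ± 1.84 CPM in GFAP+ and 41.7 CPM in NeuN+), and the division genes Mki67 and Top2a were too low to test, at 1.88 and 1.77 CPM.

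The 5 genes that varied most among the GFAP+ libraries, of those 2-fold above each population without overlap, were Ahnak, Gm17660, Lef1, Lpin3 and Msx1. Ahnak, a large scaffold protein, had 139, 65.2, 129 and 77.9 CPM and the Wnt effector Lef1 113, 53.1, 83.7 and 56.3 CPM, both higher in replicates 1 and 3. Lpin3 (6.62, 15.1, 10.3 and 8.71 CPM) and Msx1 (3.71, 6.92, 7.0 and 7.38 CPM) were lowest in replicate 1, and Gm17660 (4.10, 4.32, 9.07 and 5.49 CPM) was highest in replicate 3. All 20 of these values were above every other saline library of the same gene.

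The set was also examined in libraries that had not chosen it. In corticosterone-injected mice, 960 of the 992 genes were tested, 953 (99.3%) were higher in GFAP+ nuclei than in the mean of the others, where 26.3% of all tested genes were, and none was lower (7 did not pass). Their median log2 fold change was 3.11, beside -0.07 for all genes. By the same 2-fold rule 920 genes (5.18% of those tested) were above each population after corticosterone, and 818 were shared, 82.5% of the saline set and 88.9% of the corticosterone set. For genes at least 2-fold below each, 36 were shared, 66.7% of the 54 in saline and 59.0% of 61 (0.343% of those tested) after corticosterone. Gfap had 168, 212, 203 and 188 CPM and Aqp4 222, 251, 250 and 269 CPM in GFAP+ nuclei after corticosterone, overlapping the saline values.

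The difference between GFAP+ nuclei and the others itself differed between injections for 129 of 18535 genes, 78 upward (0.421%) and 51 downward (0.275%). Of the 992 genes 23 were among them, 13 upward and 10 downward. The 3 with the smallest p upward were Nrros, Hacd2 and Spsb1. Hacd2, an enzyme of fatty acid elongation and one of the 992, had 456, 557, 409 and 448 CPM in GFAP+ nuclei after corticosterone, against 208, 284, 238 and 229 CPM after saline (difference 0.81 ± 0.09, SE, adjusted p = 4.92e-07). Nrros, a TGF-β-binding protein highest in PU.1+ nuclei, had 80.5, 87.3, 56.4 and 73.5 CPM in GFAP+ nuclei after corticosterone, against 18.4, 24.9, 26.8 and 15.7 CPM after saline. In neither gene did the injections overlap. Spsb1, a subunit that targets proteins for degradation, had 159 to 191 CPM, against 65.9 to 90.5 CPM. The other populations moved as well, since Spsb1 had 270 to 347 CPM in 3X- nuclei after corticosterone, against 181 to 209 CPM after saline.

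Downward, the 3 were Efhd2, Trib2 and Lmo1. Efhd2, a calcium-binding protein, had 25.1 to 28.2 CPM in GFAP+ nuclei after corticosterone, against 37.4 to 47.4 CPM after saline, Trib2, a pseudokinase, 30.6 to 35.8 CPM against 46.7 to 61.0 CPM, and the transcription cofactor Lmo1 10.5 to 12.2 CPM against 15.4 to 25.4 CPM. Other genes of the 992 moved too, named here after their values were seen. Rgs16, a regulator of G protein signalling, had 5.56 to 8.72 CPM after corticosterone, against 0.662 to 2.18 CPM after saline, and Nr2e1, a nuclear receptor of neural stem cells, 24.5 to 28.2 CPM against 42.7 to 47.0 CPM. For each of these genes the 4 corticosterone libraries lay apart from the 4 saline ones.

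In naive mice, where NeuN- nuclei of all glial types were collected together, the astrocyte set was again higher in NeuN- nuclei. In the hippocampus 794 of 851 tested genes were higher than in NeuN+ nuclei (93.3%, where 37.4% of all tested genes were), 3 lower, and 54 did not pass (n = 3 and 4). The median log2 fold change was 2.66, beside 0.05 for all genes. Gfap had 72.7, 82.6 and 74.8 CPM in NeuN- nuclei, against 0.500 to 3.03 CPM in NeuN+ nuclei. The 3 lower genes were Igfbp5, Gabrb1 and Dzip1l (-0.25, -0.20 and -0.20), but the mean CPM of all 3 was higher in NeuN- nuclei. Gabrb1, a GABA receptor subunit, had 1428 to 1496 CPM in NeuN- and 1160 to 1240 CPM in NeuN+ nuclei, so that the direction turns on the TMM scaling.

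In the mPFC 742 of 850 tested genes were higher in NeuN- nuclei (87.3%, against 37.4% of all tested genes), 36 lower (background 35%) and 72 did not pass (n = 3 each). Gfap there had 10.5, 16.1 and 15.5 CPM in NeuN- nuclei, against 0, 0.249 and 0.242 CPM in NeuN+ nuclei. Gli3 had 383 to 391 CPM in NeuN- nuclei of the mPFC, against 0.603 to 1.53 CPM in NeuN+. Of the 36 lower genes, 3 are given here, chosen after their values were seen. Pdzrn3, a ubiquitin ligase, had 53.8, 68.0 and 78.5 CPM in NeuN- and 521, 452 and 537 CPM in NeuN+ nuclei of the mPFC (-3.42 ± 0.12), beside 121 to 124 CPM in NeuN- and 54.1 to 84.6 CPM in NeuN+ nuclei of the hippocampus. Nr2f1, a regulator of cortical areas, had 5.21 to 7.94 CPM in NeuN- and 12.1 to 12.7 CPM in NeuN+ nuclei of the mPFC, and Lhfp 84.9 to 103 and 136 to 175 CPM. The difference between regions was not tested, the tables were scaled separately, and the libraries of the regions were made with different versions of the kit, so that region and kit cannot be told apart.

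**Figure D5:**
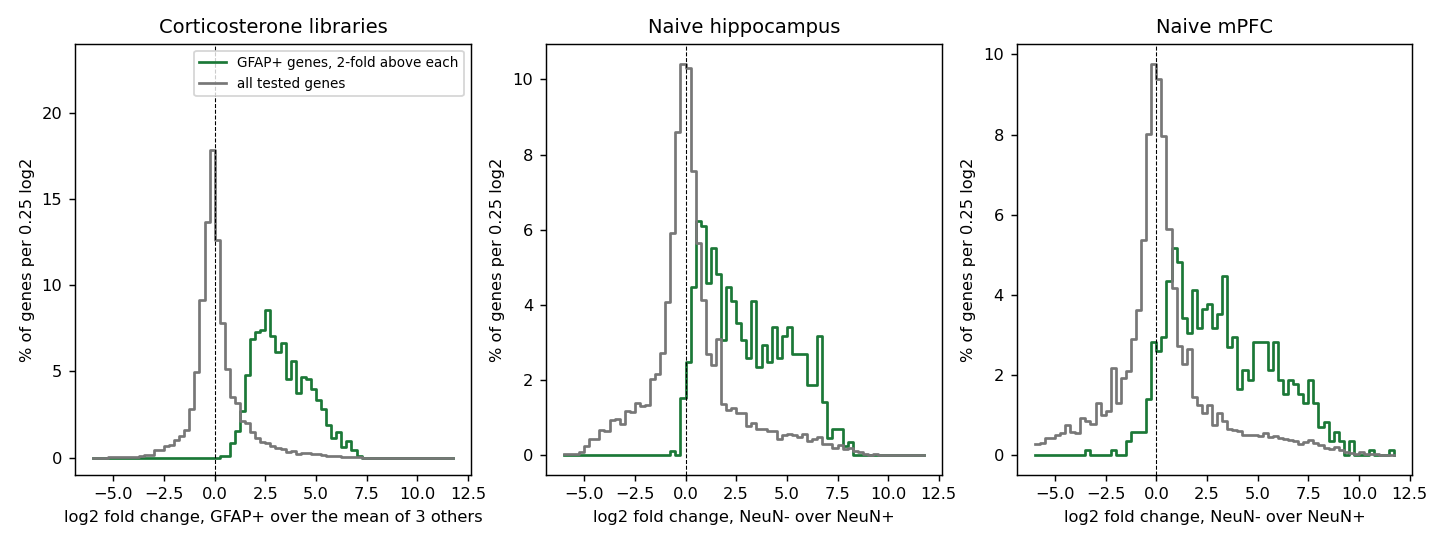
Percent of genes in each 0.25-wide bin of log2 fold change, for the 992 genes set by saline GFAP+ nuclei (those tested there) and for all tested genes: GFAP+ over the mean of the others after corticosterone, and NeuN- over NeuN+ nuclei in naive hippocampus and mPFC. The medians of the set are 3.11, 2.66 and 2.94, beside -0.07, 0.05 and 0.05 for all genes.

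Of the 992 genes, 19 (1.92%) had a deposited hippocampal γH2AX peak, a chromatin mark of DNA double-strand breaks, against 1.74% of all tested genes. The list used here held 282 peaks of naive and conditioned mice together. It is shorter than the list the study described, and it does not tell the cell type. The 19 included Slc1a2, Glul, the metallothioneins Mt1, Mt2 and Mt3, Id3, Hes5, the clock genes Dbp and Nr1d1, and Bhlhe40. Their log2 fold changes over the mean ran from 1.65 for Ckb to 4.65 for Id3.

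RefSeq upstream stretches of 250 bases were matched by symbol for 670 of the 992 genes and for 11065 of the tested genes. The median number of CpG dinucleotides was 11, against 16, and 13 against 16 for protein-coding genes alone. The nuclear factor I half-site TTGGCA, searched on both strands, was in 12.5% of the 670, against 9.83% of all, TATAAA in 9.25% against 6.03%, the STAT motif TTCNNNGAA in 6.57% against 5.70% and the SOX core ACAATG in 4.63% against 6.07%. None of the 4 stretches printed above holds TTGGCA or TTCNNNGAA, and that of C030018K13Rik holds ACAATG. A match describes letters in this window and no more.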

How the data were processed

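The deposited values are raw counts per gene, made by the authors with featureCounts over gene bodies, after Trimmomatic, HISAT2 (genome GRCm38), Picard and SAMtools. Versions are not given in the sources used here. The strand setting is not stated. Of 53749 gene IDs 53682 matched the annotation, and the other 67 held 0.00847% to 0.0569% of counts. The authors' γH2AX peak positions were matched by gene symbol. 1 naive library deposited with identical values was counted once.

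A gene entered the test where any group's mean FPKM passed 0.2. Tests used edgeR 4.0.16 (quasi-likelihood, TMM, Benjamini-Hochberg, threshold 0.05; R 4.3.3, limma 3.58.1, the data.table package, 1.17.8, DESeq2 1.42.0; Python 3.11.15, pandas 2.3.3, NumPy 2.4.6, matplotlib 3.10.9). CPM values were not TMM-scaled. The fit was tested on simulated data. Named genes were Gfap and Aqp4, list members, the 20 genes furthest above and 10 below each population and the 10 furthest below the mean (no overlap, mean of at least 50 counts), the 5 most variable, and the top 3 by injection difference in each direction. Members and lists were chosen with earlier results of these data known. Some list members are not reported here by name.

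Alternatives were another scaling, tool or filter, a replicate block, and leaving out libraries.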

Additional observations from a re-analysis of the deposited data

Results flagged for a closer look

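Among 66 values checked in the 4 saline GFAP+ libraries, 5 had 1 library far from the other 3. A chance rate of about 1 in 20 cannot be set against this number. Some genes, Msx1 among them, were picked for their spread in these same libraries, and Pdgfra is part of the precursor sum. C030018K13Rik had 88.6 CPM in replicate 2. Mbp had 506 CPM and Pdgfra 56.9 CPM in replicate 1, the summed oligodendrocyte precursor markers 766 CPM in replicate 1, and Msx1 3.71 CPM in replicate 1.

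The difference of GFAP+ nuclei from the other populations was tested between corticosterone and saline by an interaction term in edgeR. It was larger after corticosterone for Nrros (log2 1.84), Spsb1 (0.91) and Hacd2 (0.81), and smaller for Efhd2 (-0.88), Trib2 (-0.89) and Lmo1 (-0.93).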

How the results depend on the processing

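Leaving out 1 library at a time gave 4476 to 4835 genes higher and 4669 to 5102 lower than the mean of the others, 971 to 1032 at least 2-fold above each and 48 to 63 below each, and log2 fold changes of 4.98 to 5.12 for Gfap and 5.84 to 5.98 for Aqp4. It gave 892 to 938 genes 2-fold above each after corticosterone, 87 to 154 genes that differed between injections, 772 to 793 and 717 to 741 of the set higher in naive hippocampus and mPFC, and mean percents of 32.6 to 37.0 for excitatory and 52.3 to 58.8 for inhibitory markers. Without TMM 5464 genes were higher and 3897 lower, 8041 and 3575 against NeuN+ alone, and 33 were below each. A 4-fold rule left 500 above and 6 below each. TMM-scaled percents were 27.0% (excitatory) and 44.2% (inhibitory). DESeq2 called 4652 higher, 4788 lower, and 190 that differed between injections. Myrf, at 0.04, ran from -0.26 (without GFAP+ replicate 1) to 0.18 (without GFAP+ replicate 4), and the cause was not tested.

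Of 24 same-numbered pairs of saline libraries 11 had a correlation over 0.1, including all 4 pairs of GFAP+ with 3X- (0.153 to 0.252) and of PU.1+ with 3X- (0.111 to 0.254), but none of GFAP+ with NeuN+ (0.0537 to 0.0962). In 44 of 48 cases a library correlated best with its own number among the 4 in another population, a hint of shared animals that the labels do not state. The main p-values come from a fit that did not pair the libraries. With the replicate block 4756 genes were higher, 5183 lower, 966 above and 52 below each, and 161 differed between injections. Of named genes in the contrast with the mean, the block changed the call of Cnr1 (0.25), Kl (-0.44), Gabbr2 (-0.19) and Itpr1 (-0.14) and of no other. Over all alternatives and left-out libraries, 18 named genes lost their call at least once, 13 gained one and 1 was reversed in direction. Without saline GFAP+ replicates 1 and 3, chosen after seeing the data, 4276 were higher, 992 above and 67 below each, 922 and 48 of them shared. Depth limits genes with few counts, and p-values cover the spread between these libraries alone.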
